A study of Mus musculus with 11 samples.

Results

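A set of 10 genes that store, move or bind zinc and iron was followed in BV2 cells treated with fragments of apolipoprotein E. They were chosen by symbol among the 36529 genes listed in the count tables, with earlier results of these data known. All 10 were present and tested in every comparison. The genes were the metallothioneins Mt1 and Mt2, the zinc transporters Slc39a14 and Slc30a1, the iron exporter Slc40a1, the transferrin receptor Tfrc, the ferritin chains Fth1 and Ftl1, the iron carrier binder Lcn2 and the phagosomal metal transporter Slc11a1.

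BV2 is a single transformed line of mouse microglia, labelled as C57BL/6. Cells were given 25 μg/ml of nApoE4 (residues 1–151 of apoE4, with a 6X-His tag) for 5 h in 3 samples, and 3 untreated samples, ControlA, were the controls of that fragment. In the other experiment, nApoE3 (the same residues of apoE3, also tagged) was given at the same concentration and time in 2 samples, with 3 untreated samples, ControlB. The labels name PBS as the vehicle while the methods name conditioned media, so the vehicle of the untreated cells remains unknown. Each fragment was added in its own experiment, so a difference between fragments and a difference between experiments cannot be told apart. The methods call the measurements independent, but neither they nor the labels say that the samples of a group were separate cultures, so the p-values measure the spread between these samples, which may be technical.

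The files held 39732710 to 44162511 counts per sample in the nApoE4 experiment and 55809688 to 69768666 in the nApoE3 experiment. A level is given in CPM, which are counts scaled to the library size and adjusted for library composition. Before that adjustment, 3 counts corresponded to 0.043 to 0.0755 CPM, which covers counting error only. Replicates correlated at 0.992 to 0.996 across genes on log CPM. Of 12 microglia and macrophage markers, P2ry12 was at 0 in all libraries, and Aif1 and Cx3cr1 reached at most 0.142 and 0.739 CPM in any library. The summed level of the list was 3317 to 3637 CPM in ControlA, 3571 to 3655 with nApoE4, 2394 to 2503 in ControlB and 2810 to 2826 with nApoE3. In ControlA, Cd68, Csf1r and Tyrobp made up most of it, with means of 1069, 799 and 625 CPM. Of these markers, 2 rose and 5 fell of 9 tested with nApoE4, where 28.6% of all genes tested rose and 28.6% fell. With nApoE3, 4 rose and 5 fell of 10, where 33.1% of all genes rose and 34.6% fell. For example, Spi1 stood at 268 ± 19.5 CPM in ControlA and 678 ± 17.6 CPM with nApoE4 and Cd68 at 1069 ± 64.2 and 880 ± 32.9 CPM (SD, n = 3 each). Trem2 stood at 60.5 CPM in 1 ControlA library and at 1.33 and 2.50 CPM in the others. It reached at most 0.808 CPM in ControlB and 0.670 CPM with nApoE3. In bulk samples, fewer cells that express a gene and less RNA per cell cannot be told apart.

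As background, zinc enters the cytosol through importers of the SLC39 family, leaves it through exporters of the SLC30 family, and is buffered by metallothioneins, whose transcription is raised by the zinc sensor MTF1 acting through metal response elements. Iron enters cells on transferrin through the transferrin receptor, is stored in ferritin and leaves through ferroportin, the product of Slc40a1. Iron-regulatory proteins bind hairpins called iron-responsive elements, which hold back translation when they lie in the 5′ UTR of an mRNA and protect the mRNA when they lie in the 3′ UTR. Macrophages and microglia handle iron from engulfed cells, and in inflammation they limit the iron that microbes can reach.

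The hairpin sequences are shown because 4 of the genes carry them, those of iron uptake, storage and export. Transcripts were searched for a bulged C, a 5-base upper stem and the loop CAGTGN, with a paired lower stem. Of 21989 protein-coding genes, 28 (0.127%) held a match anywhere in a transcript, coding region included. Among the 10 metal genes, 4 held at least 1 match and 6 held none. Tfrc held 4 in its 3′ UTR, and Slc40a1, Fth1 and Ftl1 held 1 each in the 5′ UTR. The matches are sequence descriptions from GENCODE transcripts on GRCm38, and capitals mark the loop. They lie at chr1:45925466-45925492 on the minus strand for Slc40a1, at chr16:32631220-32631246, chr16:32631599-32631625, chr16:32631664-32631690 and chr16:32631711-32631737 on the plus strand for Tfrc, at chr19:9982733-9982759 on the plus strand for Fth1 and at chr7:45459780-45459806 on the minus strand for Ftl1.
Slc40a1 5′ UTR: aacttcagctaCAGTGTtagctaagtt
Tfrc 3′ UTR, first: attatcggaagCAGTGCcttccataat
Tfrc 3′ UTR, second: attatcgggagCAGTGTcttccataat
Tfrc 3′ UTR, next: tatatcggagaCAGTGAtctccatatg
Tfrc 3′ UTR, last: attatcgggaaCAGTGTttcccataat
Fth1 5′ UTR: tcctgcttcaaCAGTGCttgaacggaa
Ftl1 5′ UTR: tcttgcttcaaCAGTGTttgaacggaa

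With nApoE4, 4 of the 10 genes rose (Slc39a14, Slc30a1, Fth1 and Lcn2), 4 fell (Mt1, Mt2, Slc40a1 and Tfrc) and 2 did not pass the test (Ftl1 and Slc11a1). Across all 14240 genes tested by edgeR's quasi-likelihood F test, 57.2% passed at an adjusted p-value under 0.05, where 28.6% of genes were higher and 28.6% lower, so a call alone was common. With nApoE3, 6 genes rose (Mt1, Slc39a14, Slc40a1, Fth1, Lcn2 and Slc11a1), Tfrc fell and 3 did not pass (Mt2, Slc30a1 and Ftl1), where 67.7% of 14817 genes passed, 33.1% higher and 34.6% lower. The libraries of the treated and control groups did not overlap for 8 of the 10 genes with nApoE4 (4 higher and 4 lower) and for 8 with nApoE3 (6 higher and 2 lower). Over all genes tested, the libraries did not overlap for 63.6% with nApoE4 (31.5% higher, 32.1% lower) and for 77.6% with nApoE3 (38.6% higher, 39% lower), so such separation was common. The median log2 fold change of the 10 genes was −0.0071 with nApoE4 and 0.29 with nApoE3, beside 0.0013 and −0.0026 over all genes tested. Among calls, the sizes ranged from 98.4-fold and 91.8-fold for Lcn2 to 1.08-fold for the nApoE3 rise of Mt1.

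**Figure D1:**
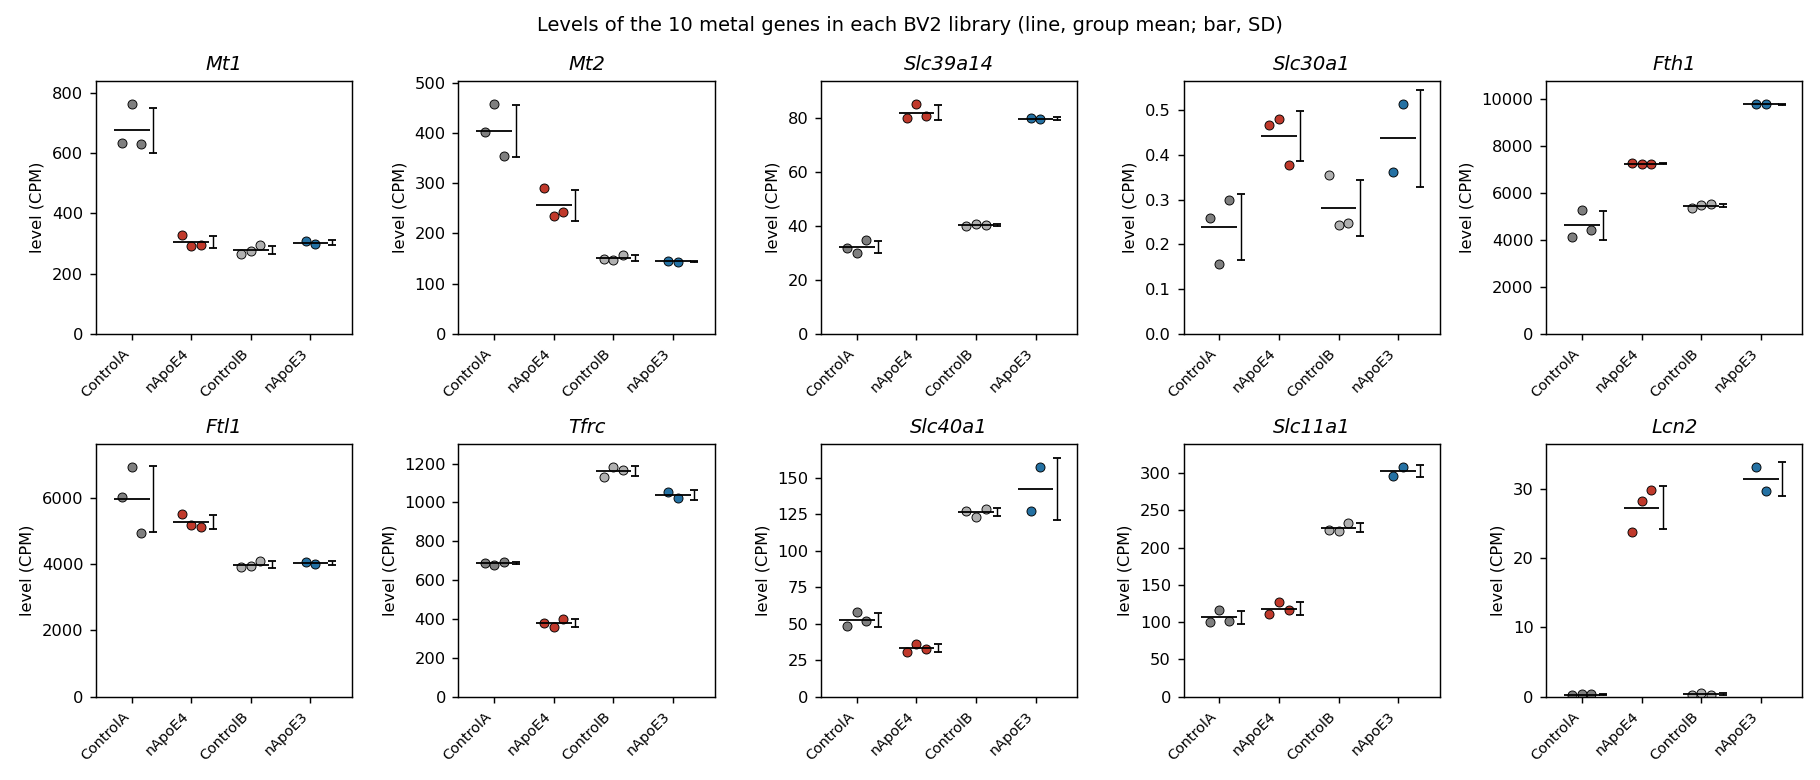
Level of each of the 10 genes in CPM on a linear axis from 0, with 1 point per library, the group mean as a line and the SD as a bar, for ControlA, nApoE4, ControlB and nApoE3. Lcn2 stood near 0 in both control groups and at 23.8 to 33.2 CPM in the treated libraries, while the metallothioneins, Tfrc, Slc40a1 and Slc11a1 also differed between the control groups.

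**Figure D2:**
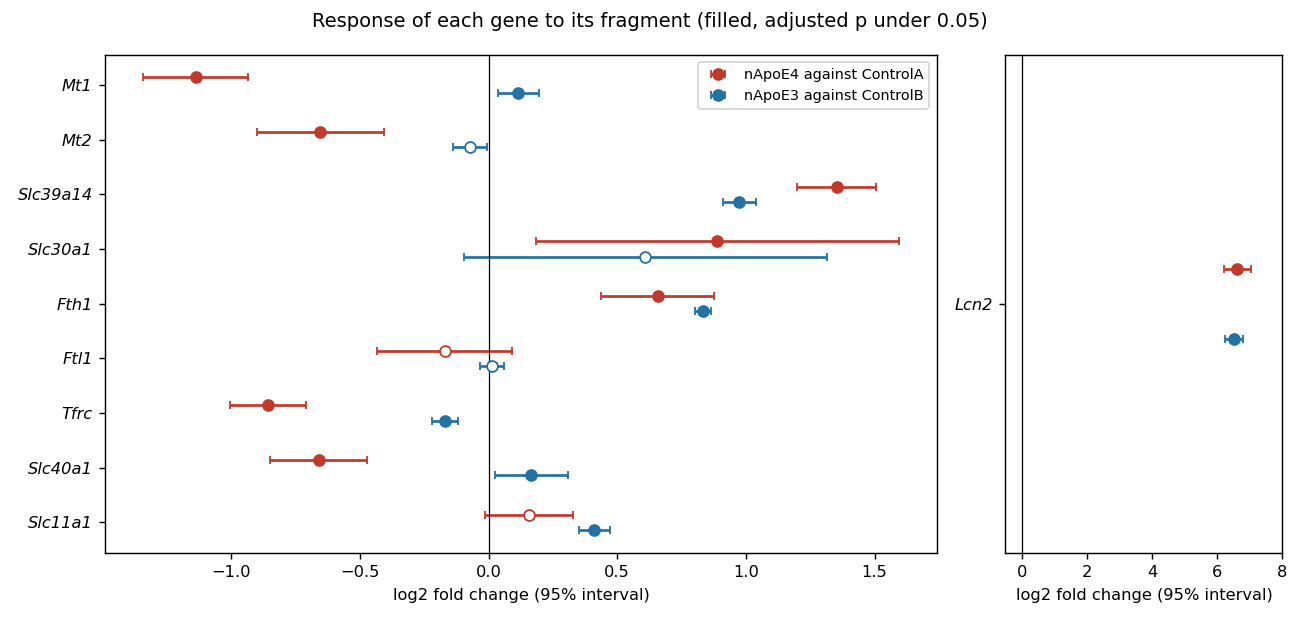
Log2 fold change of each gene against the controls of its own experiment, with 95% intervals from edgeR (red, nApoE4; blue, nApoE3; filled, adjusted p-value under 0.05; Lcn2 on its own axis). Mt1, Mt2, Tfrc and Slc40a1 lay lower with nApoE4, at −0.65 to −1.14, than with nApoE3, at −0.17 to 0.17, and Slc39a14 and Fth1 lay above 0 with both.

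The metallothioneins are small cysteine-rich proteins that bind zinc and copper. Mt1 lies on chromosome 8 at chr8:94178883-94180327 and Mt2 at chr8:94172618-94173567 of GRCm38.p6, both on the plus strand and 5315 bases apart. Their promoters are shown because both genes fell with nApoE4. They are the 250 bases before the start listed for each promoter on GRCm38.p6, at chr8:94178839-94179088 for Mt1 and chr8:94172368-94172617 for Mt2. For Mt2 that start is the start of the RefSeq gene, and the GENCODE start lies 46 bases further downstream. For Mt1 the listed promoter start lies inside the RefSeq gene span given above, so that most of its window lies after the RefSeq start. Matches in the Mt1 window thus say little of the bases before that RefSeq start, and their number cannot be set against that of Mt2. Capitals mark the metal response element, searched as TGCACNC or TGCGCNC on both strands. The Mt1 window held 1 match, and the Mt2 window held 3, of which the one nearest the start overlaps a match to the hypoxia response element core (ACGTG or GCGTG). Of 32851 promoter windows of the same length, 7032 (21.4%) held the element.
Mt1 promoter: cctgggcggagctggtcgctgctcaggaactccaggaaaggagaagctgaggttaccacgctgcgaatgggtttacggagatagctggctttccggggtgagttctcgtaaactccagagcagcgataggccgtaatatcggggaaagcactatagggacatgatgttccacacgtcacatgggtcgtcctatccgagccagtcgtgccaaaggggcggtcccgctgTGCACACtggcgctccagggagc
Mt2 promoter: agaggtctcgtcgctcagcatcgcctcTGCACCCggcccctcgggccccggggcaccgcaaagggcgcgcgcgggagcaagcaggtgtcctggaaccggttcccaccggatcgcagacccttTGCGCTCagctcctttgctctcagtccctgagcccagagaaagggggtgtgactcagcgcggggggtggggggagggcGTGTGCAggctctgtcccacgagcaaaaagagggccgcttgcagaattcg

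Mt1 fell with nApoE4. It stood at 633, 762 and 629 CPM in the ControlA libraries and at 329, 292 and 295 CPM in the treated ones. All 3 treated libraries lay below all 3 controls. The mean fell from 675 ± 75.7 to 305 ± 20.7 CPM (SD, n = 3 each), a 2.20-fold lower level or −1.14 on the log2 scale (standard error 0.091, edgeR adjusted p = 4e-06). In the nApoE3 experiment, Mt1 stood at 267, 274 and 295 CPM in ControlB and at 309 and 297 CPM with the fragment, so that both treated libraries lay just above the controls. The log2 fold change was 0.12 (standard error 0.037, adjusted p = 0.0149), and it no longer passed without ControlB replicate 1 (0.083, adjusted p = 0.0728), without ApoE3 replicate 1 (0.091, adjusted p = 0.116) or with all 11 samples in one fit (adjusted p = 0.242).

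Mt2 also fell with nApoE4. It stood at 402, 458 and 354 CPM in ControlA and at 291, 235 and 242 CPM with the fragment, without overlap. The log2 fold change was −0.65 (standard error 0.11, edgeR adjusted p = 6.68e-04), a 1.57-fold lower level. With nApoE3, Mt2 read 145 and 144 CPM against 148, 148 and 157 CPM in ControlB. The log2 fold change of −0.073 (standard error 0.030) fell just short of the threshold (adjusted p = 0.0503) and passed in 4 of 12 alternatives, with adjusted p-values from 0.0162 to 0.613. Within each library, the ratio of Mt1 to Mt2 counts was 1.67 ± 0.103 in ControlA and 1.20 ± 0.0592 with nApoE4 (SD, n = 3 each), and 1.84 ± 0.0397 in ControlB (SD, n = 3) against 2.13 and 2.06 in the nApoE3 libraries. The ratio was lower in every nApoE4 library than in every ControlA library, and higher in both nApoE3 libraries than in every ControlB library.

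Slc39a14, which encodes the importer ZIP14 of zinc, iron and manganese, rose with both fragments. On chromosome 14 it spans chr14:70303467-70351452 on the minus strand. It read 32.0, 30.1 and 34.7 CPM in ControlA and 80.2, 85.3 and 80.9 CPM with nApoE4, a 2.55-fold rise (log2 fold change 1.35, standard error 0.068, edgeR adjusted p = 1.44e-07). With nApoE3 it read 80.2 and 79.5 CPM against 40.1, 40.9 and 40.5 CPM in ControlB, a 1.96-fold rise (log2 fold change 0.97, standard error 0.029, adjusted p = 2.38e-11). The treated levels lay close together in the 2 experiments, and no treated library overlapped a control.

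Slc30a1, at chr1:191906697-191913248 on the plus strand, encodes the zinc exporter ZnT1 of the plasma membrane and is a textbook target of MTF1. Few reads were counted on it. The libraries held 11, 7 and 14 counts in ControlA and 20, 20 and 15 with nApoE4, then 25, 15 and 14 counts in ControlB and 21 and 29 with nApoE3. In CPM, the treated libraries lay above their controls in both experiments, by narrow margins. The log2 fold change with nApoE4 was 0.89 (standard error 0.31, edgeR adjusted p = 0.0348), but it was no longer past the threshold in 8 of 12 alternatives, including each fit without ControlA replicate 1 or 2 or without any one of the ApoE4 replicates, with adjusted p-values from 0.0287 to 0.159. With nApoE3 it was 0.61 (95% interval −0.09 to 1.31, adjusted p = 0.114). At these counts a change of Slc30a1 was at the limit of what could be detected. A noncoding gene, 1700034H15Rik, overlaps it in RefSeq and held 0 to 2 counts. Reads lying over both genes may have been left uncounted, so the low counts of Slc30a1 need not mean low expression.

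Tfrc encodes the transferrin receptor, the main route of iron uptake, and lies at chr16:32608896-32632794 on the plus strand. It read 688, 680 and 692 CPM in ControlA and 378, 357 and 398 CPM with nApoE4. The treated libraries lay far below the controls, and the level was 1.81-fold lower (log2 fold change −0.86, standard error 0.065, edgeR adjusted p = 2.99e-06). With nApoE3 it read 1054 and 1021 CPM against 1131, 1183 and 1167 CPM in ControlB, also without overlap. That fall was 1.12-fold (log2 fold change −0.17, standard error 0.023, adjusted p = 3.27e-05). Since Tfrc is also a gene of red cell precursors, a list of 7 erythroid markers was read beside it, and the globin genes Hba-a1, Hba-a2 and Hbb-bs were at 0 in all libraries. The list summed to 1.14 to 1.20 CPM in ControlA, 0.373 to 0.794 with nApoE4, 0.482 to 0.711 in ControlB and 0.337 to 0.395 with nApoE3. These sums were far below the level of Tfrc and came mostly from Klf1, at 9 to 48 counts per library. Only 1 marker of the list could be tested, and it fell with nApoE4 and did not pass with nApoE3. The part of such cells in the fall of Tfrc was not tested.

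Slc40a1, at chr1:45908070-45926532 on the minus strand, encodes ferroportin, the cellular iron exporter. It read 48.6, 57.9 and 51.8 CPM in ControlA and 30.9, 36.4 and 32.5 CPM with nApoE4. All 3 treated libraries lay below the controls, a 1.58-fold lower level (log2 fold change −0.66, standard error 0.084, edgeR adjusted p = 1.07e-04). With nApoE3 it read 127 and 157 CPM against 127, 123 and 129 CPM in ControlB, so that 1 treated library lay among the controls. The rise of 0.17 on the log2 scale (standard error 0.064, adjusted p = 0.0376) rested on ApoE3 replicate 2, since it was 0.0046 (adjusted p = 0.923) without that library. It also missed the threshold without ControlB replicate 1 (adjusted p = 0.0874), without ControlB replicate 2 (adjusted p = 0.0912), by DESeq2 (adjusted p = 0.265) and with all 11 samples in one fit (adjusted p = 0.129). Tfrc and Slc40a1 thus both fell with nApoE4, while other genes of iron uptake and export moved in both directions, as given below. The Tfrc to Slc40a1 count ratio was 13.1 ± 1.23 in ControlA and 11.4 ± 1.40 with nApoE4 (SD, n = 3 each), with overlapping libraries.

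Ferritin stores iron in a shell of heavy and light chains. The heavy chain, which oxidises the iron, is encoded by Fth1 at chr19:9980600-9985111 on the plus strand, and the light chain by Ftl1 at chr7:45457944-45459886 on the minus strand. Fth1 rose with both fragments. It read 4136, 5289 and 4420 CPM in ControlA and 7274, 7230 and 7236 CPM with nApoE4, a 1.58-fold rise (log2 fold change 0.66, standard error 0.097, edgeR adjusted p = 2.96e-04). With nApoE3 it read 9762 and 9780 CPM against 5365, 5502 and 5511 CPM in ControlB, a 1.78-fold rise (log2 fold change 0.83, standard error 0.014, adjusted p = 1.71e-13). The treated libraries of each experiment lay above every control and within a narrow range of each other.

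Ftl1 did not pass the test with either fragment. It read 6038, 6937 and 4934 CPM in ControlA and 5525, 5193 and 5132 CPM with nApoE4, with overlap (log2 fold change −0.17, 95% interval −0.43 to 0.09, edgeR adjusted p = 0.239). Without ControlA replicate 3, the lowest control, the log2 fold change was −0.30 (adjusted p = 0.0249). With nApoE3 it read 4071 and 3991 CPM against 3900, 3929 and 4098 CPM in ControlB (log2 fold change 0.013, 95% interval −0.03 to 0.06, adjusted p = 0.593). Listed ferritin heavy chain copies of the Fthl17 family held 0 to 4 counts, and reads that mapped to several places, such as ferritin pseudogenes, cannot be assigned from these counts.

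The heavy to light chain ratio rose as Fth1 rose. Counts of Fth1 per Ftl1 count were 0.685, 0.762 and 0.896 in ControlA and 1.32, 1.39 and 1.41 with nApoE4. In the nApoE3 experiment they were 1.38, 1.40 and 1.34 in ControlB and 2.40 and 2.45 with the fragment. The ratio did not overlap between treated and control libraries in either experiment, and the nApoE4 libraries stood about where the ControlB libraries did. Both chains together took 1.11 ± 0.121% of counts in ControlA, 1.24 ± 0.0159% with nApoE4, 0.954 ± 0.0165% in ControlB and 1.27 ± 0.00304% with nApoE3 (SD, n = 3, 3, 3 and 2).

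**Figure D3:**
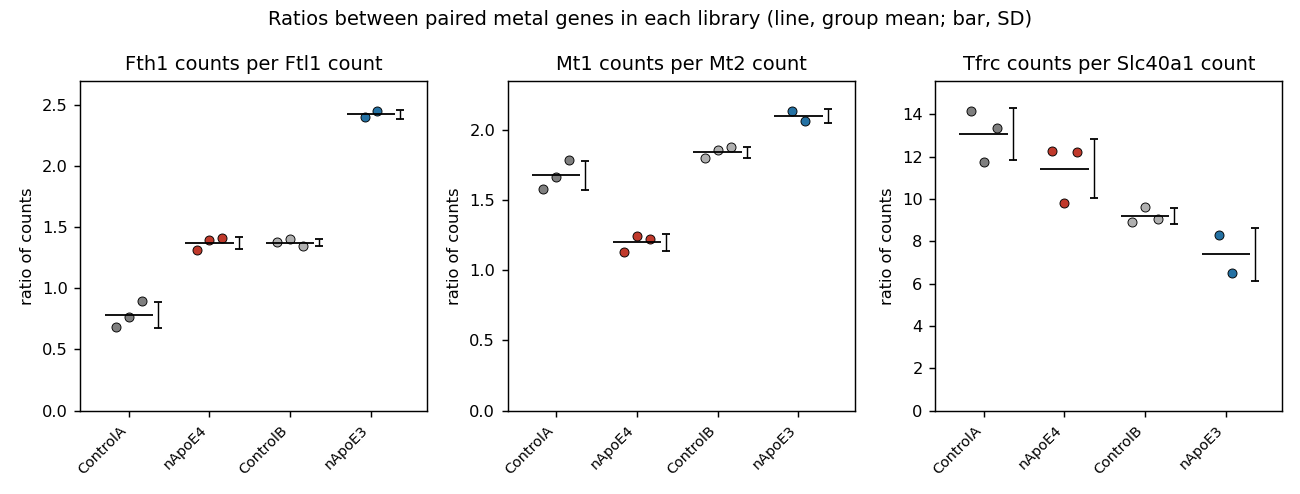
Ratios of counts within each library, with 1 point per library, the group mean as a line and the SD as a bar, on axes from 0. The Fth1 to Ftl1 ratio was higher in every treated library than in every control of its experiment, and the Mt1 to Mt2 ratio was lower with nApoE4 and higher with nApoE3.

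Lcn2 encodes lipocalin-2, which binds bacterial siderophores and so withholds iron, and lies at chr2:32384637-32387739 on the minus strand. It had the highest fold change of the 10 genes with both fragments. The libraries held 7, 15 and 15 counts in ControlA and 1020, 1176 and 1185 with nApoE4, or 0.273 ± 0.0947 and 27.3 ± 3.15 CPM (SD, n = 3 each). This was 98.4-fold (log2 fold change 6.62, standard error 0.18, edgeR adjusted p = 2.95e-09). In the other experiment the counts were 19, 31 and 14 in ControlB and 1933 and 1675 with nApoE3, a 91.8-fold rise (log2 fold change 6.52, standard error 0.13, adjusted p = 3.95e-13). Lcn2 is also a neutrophil gene, and a list of 8 neutrophil markers was read beside it. Its sum was 1.20 to 1.34 CPM in ControlA and 1.28 to 1.97 with nApoE4. In the other experiment it was 0.283 to 0.549 in ControlB and 0.762 to 1.03 with nApoE3, with Ly6g at 0 throughout. Only 2 markers of the list could be tested, and with each fragment 1 rose and none fell, where 28.6% and 33.1% of all genes tested rose. The part of such cells in the rise of Lcn2 was not tested.

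Slc11a1, at chr1:74375014-74386057 on the plus strand, encodes NRAMP1, which moves iron and other divalent metals out of the phagosome. It read 101, 116 and 102 CPM in ControlA and 111, 127 and 116 CPM with nApoE4, with overlap (log2 fold change 0.16, 95% interval −0.02 to 0.33, edgeR adjusted p = 0.108). Without ControlA replicate 2, the highest control, the log2 fold change was 0.22 (adjusted p = 0.0108). With nApoE3 it rose from 223, 223 and 234 CPM in ControlB to 297 and 309 CPM, a 1.33-fold rise (log2 fold change 0.41, standard error 0.028, adjusted p = 5.26e-08), and the groups lay apart.

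The next comparison asked whether the genes responded differently to the fragments, as the nApoE4 response minus the nApoE3 response over all 11 samples. Of the 10 genes, 5 differed, where 28.3% of 15287 genes did. The response was lower with nApoE4 for Mt1, Mt2, Slc40a1 and Tfrc, where 13.9% of all genes were, and higher for Slc39a14, where 14.4% were. Mt1 had the widest difference, −1.27 on the log2 scale (standard error 0.11, edgeR adjusted p = 3.63e-06). The differences were −0.84 for Slc40a1 (standard error 0.13, adjusted p = 3.04e-04), −0.70 for Tfrc (standard error 0.070, adjusted p = 9.54e-06) and −0.59 for Mt2 (standard error 0.14, adjusted p = 0.0057). For Slc39a14 it was 0.37 (standard error 0.077, adjusted p = 0.0031), which missed the threshold with the replicate number as a block (adjusted p = 0.053).

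The other 5 genes did not pass that test, and their intervals show what sizes remain possible. The difference was 0.091 for Lcn2 (95% interval −0.73 to 0.92), −0.19 for Fth1 (−0.42 to 0.04), −0.20 for Ftl1 (−0.49 to 0.10), 0.27 for Slc30a1 (−0.71 to 1.24) and −0.27 for Slc11a1 (−0.47 to −0.06, edgeR adjusted p = 0.0505). Slc11a1 passed in 6 of 16 alternatives, with adjusted p-values from 0.0215 to 0.176. For Ftl1 the difference was −0.32 (adjusted p = 0.0122) without ControlA replicate 3. Of the 6 genes called with both fragments, Slc39a14, Fth1, Lcn2 and Tfrc changed in the same direction, and Mt1 and Slc40a1 in opposite directions. Over all 13750 genes tested in both experiments, 6493 were called with both fragments, and 502 of these (7.73%) changed in opposite directions. The opposite calls rest on the small nApoE3 rises of Mt1 and Slc40a1 described above, which did not pass in all alternatives.

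The untreated controls of the 2 experiments differed in these genes as well. Of the 10 genes, 5 were higher in ControlB (Slc39a14, Slc40a1, Tfrc, Fth1 and Slc11a1) and 3 were lower (Mt1, Mt2 and Ftl1), where 69.3% of 14249 genes passed (34.4% higher, 34.9% lower). Lcn2 and Slc30a1 did not pass. The same 8 genes had libraries that did not overlap between the control groups, as did 74.1% of all genes (38.2% higher, 36% lower). In ControlB, Slc40a1 was 2.37-fold higher (log2 1.24, edgeR adjusted p = 1.74e-06), Slc11a1 2.11-fold higher (log2 1.08, adjusted p = 2.62e-06) and Tfrc 1.67-fold higher (log2 0.74, adjusted p = 2.89e-06) than in ControlA. Mt1 was 2.45-fold lower (log2 −1.29, adjusted p = 4.44e-06), Mt2 2.70-fold lower (log2 −1.43, adjusted p = 4.19e-06) and Ftl1 1.52-fold lower (log2 −0.60, adjusted p = 0.00144). On the log2 scale, these 6 differences without any fragment were wider than the responses of the same genes to nApoE4, except for Tfrc. The level of Mt1 in the nApoE4 libraries lay near that in ControlB. The part of these baselines in the difference between fragments was not tested. For Fth1 the difference between controls was 0.23 (adjusted p = 0.0397), and it missed the threshold in 6 of 12 alternatives, among them the fits without ControlA replicate 1 (adjusted p = 0.136), ControlA replicate 3 (0.092) and each ControlB replicate (0.0748 to 0.101).

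Levels between genes can be compared only per length, here as CPM per kilobase of the principal GENCODE transcript. In ControlA the order was Ftl1 (6167 ± 1036), Fth1 (3089 ± 402), Mt1 (1229 ± 138), Mt2 (791 ± 102), Tfrc (140 ± 1.29), Slc11a1 (45.9 ± 3.60), Slc40a1 (15.6 ± 1.40), Slc39a14 (6.55 ± 0.468), Lcn2 (0.299 ± 0.103) and Slc30a1 (0.0454 ± 0.0141), as mean ± SD of 3 libraries. No neighbours in this order had overlapping libraries. The place of Slc30a1 rests on counts that may leave out reads shared with the gene that overlaps it. With nApoE4, Lcn2 reached 29.9 ± 3.45 CPM per kilobase and so stood above Slc39a14 (16.7 ± 0.557) and Slc40a1 (9.87 ± 0.838). The ferritin chains kept the highest levels in all 4 groups, Ftl1 above Fth1 in both control groups. With nApoE3 the order of the chains was the other way, 6540 ± 8.51 for Fth1 and 4164 ± 58.2 for Ftl1 (SD, n = 2 each), and with nApoE4 Ftl1 (5458 ± 218) stayed above Fth1 (4851 ± 15.8; SD, n = 3 each).

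Some genes had a pattern close to that of a member over the 11 samples, measured as the root mean square difference of log2 CPM after adding 0.5 CPM and centring on the controls of each experiment, among 8840 genes with a mean of at least 10 CPM. The nearest gene was Nrros for Mt1 (0.085), Icam2 for Mt2 (0.0613), Sgms1 for Slc39a14 (0.0389), Cd180 for Slc40a1 (0.0878), Knop1 for Tfrc (0.0529), Surf4 for Fth1 (0.0462), Pebp1 for Ftl1 (0.0403) and Grina for Slc11a1 (0.0513). For Lcn2 the nearest, Oasl1, was further away (0.268), with Rtp4 at the same rounded distance. The added 0.5 CPM exceeds the mean level of Lcn2 in both control groups (0.273 and 0.339 CPM) and shrinks its change. Oasl1 had a log2 fold change of 5.18 with each fragment, below the 6.62 and 6.52 of Lcn2, so that its match says little. For Slc30a1 it was Fbxo22 (0.0625), but the added 0.5 CPM exceeds the mean level of Slc30a1 in every group and shrinks its changes, so that this match says little.

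The wider metal pathways were read from 10 lists of 108 other genes. With nApoE4, 28 rose, 31 fell and 26 did not pass of 85 tested (69.4% called), and with nApoE3, 33 rose, 36 fell and 16 did not pass of 85 (81.2% called). The median log2 fold change was 0.0043 with nApoE4 and −0.035 with nApoE3, beside 0.0013 and −0.0026 over all genes. The shares called stood above the 57.2% and 67.7% over all genes, with rises and falls in near equal number. Since the lists were chosen with earlier results of these data known, these shares are no measure of metal genes as a class. Of 51 other metal genes called with both fragments, 50 changed in the same direction, as did 5991 of 6493 among all genes. The list counts below stand beside shares over all genes of 28.6% higher and 28.6% lower with nApoE4, and of 33.1% higher and 34.6% lower with nApoE3.

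**Figure D4:**
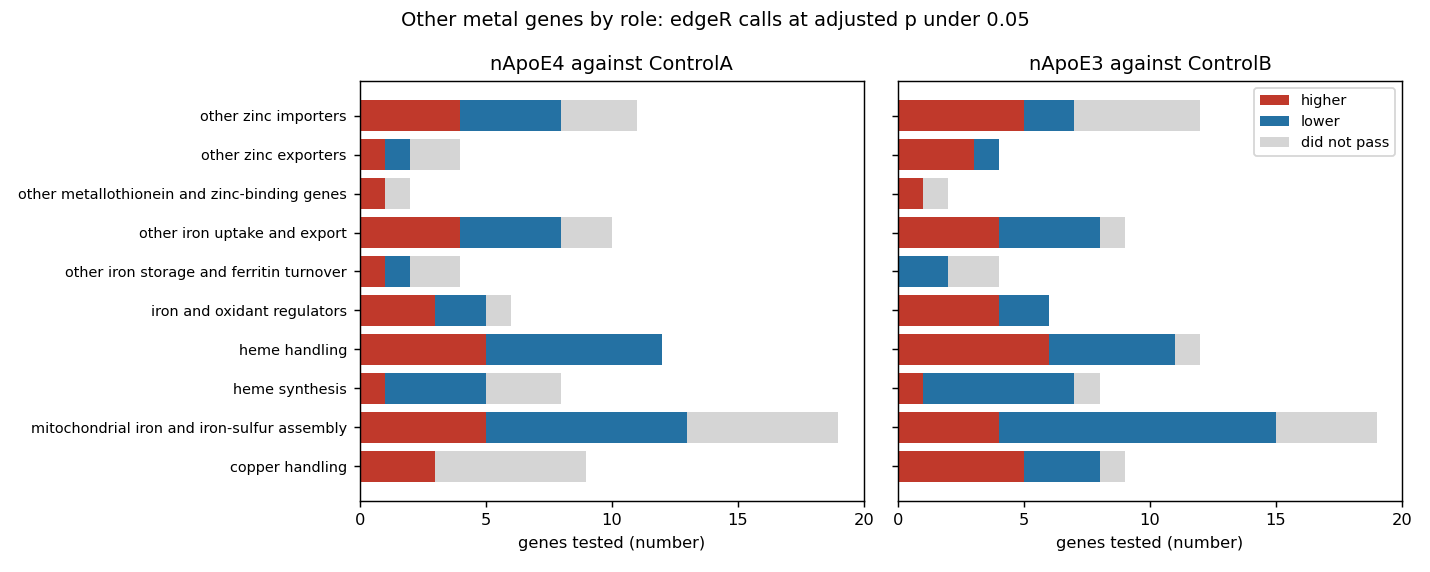
Number of other metal genes tested in each list, split by edgeR call at an adjusted p-value under 0.05 (red, higher; blue, lower; grey, did not pass), for nApoE4 on the left and nApoE3 on the right. Most lists held both rises and falls, and with nApoE3 the mitochondrial iron list held 11 lower and 4 higher of 19.

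Among other zinc importers, 4 rose and 4 fell of 11 with nApoE4, and 5 rose and 2 fell of 12 with nApoE3. Slc39a4, the importer ZIP4 of the plasma membrane, had log2 fold changes of 1.89 and 1.45 with nApoE4 and nApoE3, and Slc39a2 of 1.18 and 1.34. Slc39a13, an importer of intracellular membranes, rose more with nApoE4 (0.85) than with nApoE3 (0.13, which missed the threshold without ApoE3 replicate 1, adjusted p = 0.196). Of the other zinc exporters, 1 rose and 1 fell of 4 with nApoE4, and 3 rose and 1 fell of 4 with nApoE3. Slc30a6, a transporter of the secretory pathway, rose with both (0.70 and 0.64) and Slc30a5 fell with both (−0.75 and −0.37). Mtf1, which encodes the zinc sensor of metallothionein transcription, rose slightly with both fragments (log2 fold changes 0.34 and 0.34).

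Of the other iron uptake and export genes, 4 rose and 4 fell of 10 with nApoE4, and 4 rose and 4 fell of 9 with nApoE3. Slc11a2, the endosomal iron transporter DMT1 that works downstream of the transferrin receptor, rose from 70.4 ± 1.71 to 257 ± 8.95 CPM with nApoE4 (SD, n = 3 each; log2 fold change 1.87) and from 100 ± 0.974 to 428 ± 13.0 CPM with nApoE3 (SD, n = 3 and n = 2; 2.09). Tfrc fell in the same libraries. Cp, which encodes the ferroxidase ceruloplasmin, rose with both (3.07 and 1.70), Steap3, the endosomal ferrireductase, fell with both (−0.87 and −0.30), and Hfe fell with both (−0.69 and −0.90). In the list of other storage genes, Ncoa4, the receptor that takes ferritin to the lysosome, fell slightly with both (−0.27 and −0.20). Among 6 iron and oxidant regulators, Nfe2l2 (1.06 and 0.96) and Hif1a (1.27 and 0.85) rose, and Bach1, a heme-sensing repressor, fell (−0.45 and −0.12, the latter missing the threshold without ApoE3 replicate 1, adjusted p = 0.0698).

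Of the heme handling genes, 5 rose and 7 fell of 12 with nApoE4, and 6 rose and 5 fell of 12 with nApoE3. Hmox1, which encodes the inducible heme oxygenase that frees iron from heme, was the one gene among the 51 that changed in opposite directions, and it was singled out after its values were seen. It read 596, 702 and 577 CPM in ControlA and 419, 401 and 418 CPM with nApoE4 (log2 fold change −0.59, edgeR adjusted p = 1.83e-04). With nApoE3 it read 2431 and 3120 CPM against 436, 403 and 459 CPM in ControlB (log2 fold change 2.67, adjusted p = 2.27e-11). All treated libraries lay below the controls in one experiment and above them in the other, and the difference between the responses was −3.28 (standard error 0.14, adjusted p = 8.65e-09). Among 6493 genes called with both fragments, 502 (7.73%) changed in opposite directions. Hp, which encodes the hemoglobin binder haptoglobin, rose with both (1.61 and 1.59).

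**Figure D5:**
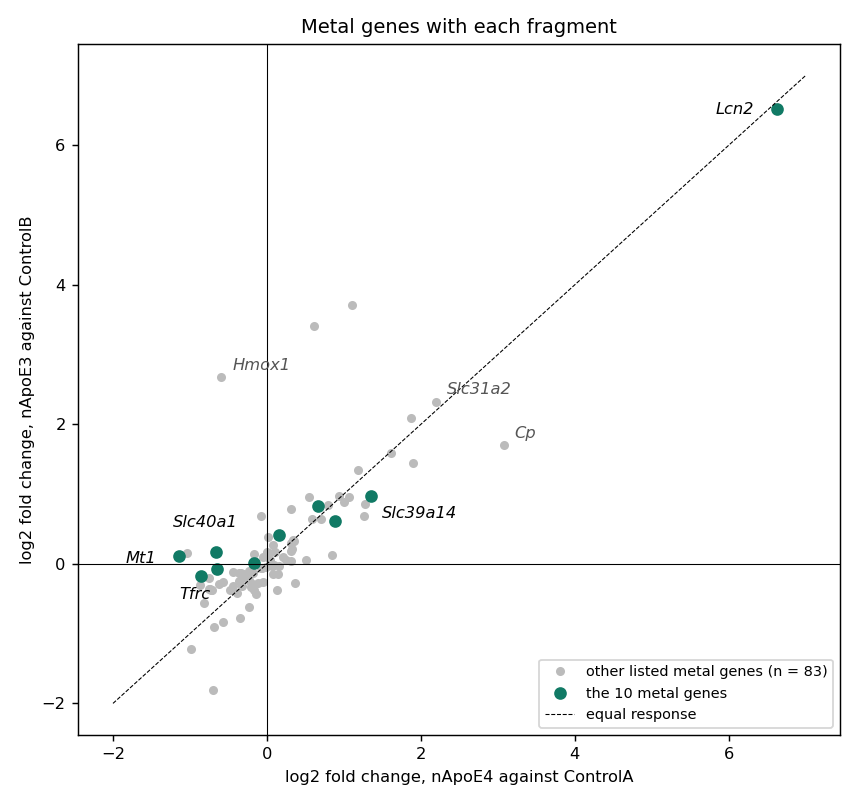
Log2 fold change with nApoE4 (horizontal) against that with nApoE3 (vertical) for the 10 metal genes (green) and the 83 other listed metal genes tested in both experiments (grey), with a dashed line of equal response. Lcn2 lay near the line, Hmox1 far above it, and Mt1, Slc40a1 and Tfrc above it on the left; the grey points above 3 on the vertical axis, Hephl1 and Hpx, had mean levels below 1 CPM in every group.

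Of the heme synthesis genes, 4 fell and 1 rose of 8 with nApoE4, and 6 fell and 1 rose of 8 with nApoE3. The one that rose, Alas1, encodes the first enzyme of the pathway (0.58 and 0.64). In the mitochondrial iron and iron-sulfur list, 8 of 19 fell and 5 rose with nApoE4, and 11 fell and 4 rose with nApoE3. Slc25a37, which encodes the mitochondrial iron importer mitoferrin-1, rose (1.00 and 0.89), and Fdxr, the ferredoxin reductase, fell (−0.99 and −1.22). Of the copper genes, 3 rose and none fell of 9 with nApoE4, and 5 rose and 3 fell of 9 with nApoE3. Slc31a2, a copper transporter, had the highest fold change of that list's named genes (2.19 and 2.32).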

How the data were processed

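Total RNA of 11 BV2 samples was sequenced by the authors as single-end reads of 75 bp. Per the labels and methods, the authors trimmed reads with Trim Galore 0.5.0, assessed them with FastQC 0.11.8, mapped them to GRCm38.p6 with HISAT2 2.1.0 and deposited raw counts per gene from HTSeq 0.11.0 (versions from the submitters' processing notes). The annotation release, strand setting and overlap mode are not given in the sources used here, so reads of overlapping genes cannot be told apart, and Cp overlaps Hps3.

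Tests used edgeR 4.0.16 in R 4.3.3 (filterByExpr, TMM, quasi-likelihood F test, Benjamini-Hochberg adjustment over all genes tested, threshold 0.05). Treated samples were set against the controls of their own experiment, and the difference between responses was fitted over 11 samples. Standard errors were derived from the F statistic. The steps were also run on simulated data in which far fewer genes changed than were called here. That run does not measure error rates for so broad a response. Alternatives were DESeq2 1.42.0, edgeR with the size factors of DESeq2, a filter of 1 count, at least 10 counts in every sample, one fit of all samples, a replicate block and leaving out each replicate, with the omission of Fth1 and Ftl1 added after seeing the data. Residuals of samples with the same replicate number correlated at −0.172 to −0.00792 between treated and control samples, so the numbers were not taken as pairs.

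The 10 genes and the lists were chosen with earlier results of these data known. From each list, up to 4 genes with the widest nApoE4 change were eligible to be named, among those called with both fragments and at 1 CPM or more in some group. Flvcr1 and Flvcr2 were found under the symbols Mfsd7b and Mfsd7c. Positions and promoters came from RefSeq tables, with windows for 8 of the 10 genes and none for Slc39a14 and Slc40a1, and transcripts from GENCODE. Genes of chromosome 18 were left out of the hairpin search. Lines of the files that name no gene were kept out of library totals.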

Additional observations from a re-analysis of the deposited data

Results flagged for a closer look

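Responses to the fragments differed by their own test for 5 of the 10 genes, given as the nApoE4 response minus the nApoE3 response on the log2 scale by edgeR. The values were −1.27 for Mt1 (adjusted p = 3.63e-06), −0.59 for Mt2 (adjusted p = 0.0057), 0.37 for Slc39a14 (adjusted p = 0.0031), −0.84 for Slc40a1 (adjusted p = 3.04e-04) and −0.70 for Tfrc (adjusted p = 9.54e-06). Each fragment was added in its own experiment, and the difference in fragment and the difference in experiment cannot be told apart.

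Of the other metal genes eligible to be named, with Hmox1, 10 also passed, where 28.3% of all genes tested did. Apart from Hmox1, singled out after its values were seen, these genes were picked for a wide nApoE4 change. That change enters this difference, so the number that passed is no measure of the lists. The difference was −3.28 for Hmox1 (adjusted p = 8.65e-09), 1.37 for Cp (adjusted p = 1.06e-04), 0.71 for Slc39a13 (adjusted p = 1.35e-05), −0.59 for Steap3 (adjusted p = 8.52e-06), −0.42 for Slc31a1 (adjusted p = 2.29e-04), 0.40 for Hif1a (adjusted p = 0.00639) and −0.39 for Slc30a5 (adjusted p = 0.00113). For Isca1 (−0.35, adjusted p = 0.0421), Bach1 (−0.34, adjusted p = 0.0126) and Slc11a2 (−0.23, adjusted p = 0.0179) the call was lost in some alternatives, as was that of Slc39a14 with the replicate number as a block (adjusted p = 0.053).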

How the results depend on the processing

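Over 528 alternative values of the 10 genes, 488 kept their direction and side of the threshold, 23 lost the threshold, 13 gained it and 4 changed sign. The sign changes were all of values that did not pass the test. Leaving out a library moved Ftl1 with nApoE3 from −0.0020 (without ControlB replicate 1) to 0.036, the difference between responses of Lcn2 from −0.29 (without ControlB replicate 2; −0.16 without ControlA replicate 1) to 0.25, and Lcn2 between controls from −0.087 (without ControlB replicate 2) to 0.46. Leaving out a library gave 7142 to 8827 genes called with nApoE4, 9121 to 9837 with nApoE3, 3040 to 5250 for the difference and 8949 to 10988 between controls. Of 88 other metal genes tested, 28 differed between responses, and 17 to 38 did so when a library was left out, with 17 without ApoE3 replicate 1. The 28 made up 31.8% of the 88, near the 28.3% over all genes tested. The fits without ControlA replicate 2 gave the 5250 genes and 38 listed genes for the difference and the 10988 genes between controls. Leaving out an ApoE3 library leaves 1 sample in that group, which is then assumed to vary like the others. DESeq2's size factors moved the median of all genes by at most 0.0085 on the log2 scale.

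Residuals of same-numbered samples gave no sign of pairing, and no sample correlated best with its own number. With the replicate block, 2307 genes differed between responses (4331 without it) and 15 of the other listed genes did, 7036 genes were called with nApoE4 and 9783 with nApoE3, and Slc39a14's difference (0.37, edgeR adjusted p = 0.053) and Slc30a1's rise with nApoE4 (adjusted p = 0.0814) missed the threshold. Low counts limited Slc30a1 and the controls of Lcn2, with at most 31 counts in a control library.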

Other observations

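Panels of other cell types were at low levels, with 2 exceptions in size. The endothelial list of 5 genes summed to 150 to 177 CPM in ControlA, 62.8 to 72.0 with nApoE4, 64.2 to 66.5 in ControlB and 43.4 to 48.1 with nApoE3, with Cldn5 at 0 in all libraries. Kdr alone made up most of that sum, at 166 ± 14.5 CPM in ControlA, 65.6 ± 4.68 with nApoE4 (SD, n = 3 each), 63.6 ± 1.52 in ControlB (SD, n = 3) and 43.7 ± 3.89 with nApoE3 (SD, n = 2). The oligodendrocyte list of 5 genes summed to 11.4 to 14.3 CPM in ControlA, 9.33 to 11.8 with nApoE4, 24.1 to 24.6 in ControlB and 22.2 to 25.5 with nApoE3, with Mog at 0. The astrocyte list summed to at most 1.39 CPM in the controls and to 4.37 to 7.03 CPM in the treated libraries, nearly all of it Slc1a2. The neuron list summed to 2.79 to 3.95 CPM in ControlA, 6.45 to 7.25 with nApoE4, 2.56 to 2.96 in ControlB and 2.05 to 2.57 with nApoE3. The hepatocyte and fibroblast lists stayed under 0.4 CPM. These sums were not tested.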
